A study of Rattus norvegicus with 15 samples.

Results

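The first week of culture without retinoic acid (RA) was examined in H9c2 cells, an established line of myoblasts taken from the heart of a rat embryo. The comparison used the 3 libraries taken at the start (T0) and the 3 libraries taken on day 7 without RA (T7-RA), which together are 6 of the 15 libraries of the series, and it covered every gene in the count table. The series followed wild-type H9c2 cells for 14 days with or without RA by RNA sequencing, to separate the part of differentiation that comes with time in culture from the part that comes with RA. T0 cells were collected 24 h after seeding in medium with 10% serum. T7-RA cells were collected on day 7 after the serum had been lowered to 1%, with no RA. Time in culture since seeding and serum withdrawal thus changed together, with any change in cell density, and cannot be told apart here. All libraries came from 1 established line, which limits how far the values speak for other myoblasts. The cell line field of the T7-RA samples reads H9c3, H9c4 and H9c5, whereas their titles read H9c2, and the titles were followed.

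Skeletal myoblasts that are deprived of mitogens leave the cell cycle, switch on the myogenic transcription factor myogenin, fuse with one another and assemble sarcomeres, the contractile units in which myosin thick filaments slide along actin thin filaments. H9c2 cells have long been used as a model of both skeletal and cardiac muscle, because they carry markers of the skeletal lineage although they were isolated from heart tissue. In growth medium such cells also carry the stress fibres and smooth muscle type actin of a migrating, adherent cell. Lowering serum also changes the supply of lipids and growth factors, to which cells respond through sterol sensing and through transcription factors that read the state of the actin skeleton.

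Each library held between 508397 and 825712 counts over genes, and the median count per gene and library was 22. Of 11574 genes in the table, 7 had no count in these 6 libraries and 11567 were tested. Levels are given as CPM, the count a gene would have in a library of 1e6 counts after TMM scaling, in the order of replicates 1, 2 and 3, and a CPM value grows with transcript length, so levels are compared between groups and not between genes. The first principal component held 46.4% of the variance and separated the groups, with T0 libraries between −43.0 and −26.2 and T7-RA libraries between 30.2 and 38.9. The second component held 20.8% and set T0 replicate 2 (41.9) apart from T0 replicate 3 (−35.9). T0 libraries varied more than T7-RA libraries, with a median SD of 0.23 against 0.15 log2 CPM over 4830 genes with a mean count of at least 30. Among those genes with transcripts of at most 1791 bases, the shortest 25%, the median deviation on the log2 CPM scale was 0.16 in T0 replicate 2 and −0.16 in T0 replicate 3. The labels do not say how the replicates of a group were separated, and the study's methods call them biological replicates, so p-values measure the spread between these libraries.

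The labelled cell type was checked against marker genes. Of 12 myoblast and muscle progenitor markers, 8 were in the table, and Myf5, Pax7, Pax3 and Msc were not among the genes analysed here. The summed level of the 8 was 1694 to 1857 CPM at T0 and 1540 to 1587 CPM at T7-RA. Myod1, the factor that commits cells to the skeletal lineage, lay at 123, 147 and 69.6 CPM at T0 and 75.1, 91.0 and 95.1 CPM at T7-RA (log2 fold change −0.40 ± 0.20, adjusted p = 0.18). Of 12 cardiomyocyte markers, 3 were in the table, and Myh6, Nppa, Nppb, Nkx2-5, Tbx5, Myl7, Myl2, Tnni3 and Ryr2 were not among the genes analysed here. The 3 were Gata4, Pln and Myocd, with a summed level of 71.7 to 146 CPM at T0 and 61.0 to 80.3 CPM at T7-RA and no call. Fibroblast markers were present in both groups (8 of 12, summed level 28800 to 41690 CPM at T0 and 27800 to 31200 CPM at T7-RA), and of them Col3a1 rose and Postn fell. Of the myoblast markers Chrna1 rose, and its call was lost without T0 replicate 1 or T7-RA replicate 3. Of the 12 adipocyte markers, 4 were in the table, and their summed level was 59.4 to 80.9 CPM at T0 and 135 to 177 CPM at T7-RA. Lpl, lipoprotein lipase, which muscle also makes, was the adipocyte marker that rose (adjusted p = 2.5e-04), and its call was lost without T0 replicate 1, T7-RA replicate 2 or T7-RA replicate 3 (adjusted p in edgeR up to 0.013). The endothelial markers in the table (4 of 12) summed to 223 to 280 CPM at T0 and 164 to 197 CPM at T7-RA, and the neuron and glia markers (3 of 12) to 29.4 to 45.0 CPM and 36.0 to 50.5 CPM, with no call in either list. In RNA from a whole culture, fewer cells of a type and less RNA per cell cannot be told apart.

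Between T0 and T7-RA, 696 genes changed at an adjusted p under 0.001 in edgeR's quasi-likelihood test, which is 6.02% of the genes tested. Of these, 327 rose (2.83%) and 369 fell (3.19%). With library size as the only scaling the split was 457 to 259 and the median log2 fold change of all genes 0.13 instead of 0.03. The genes that rose moved further: their median log2 fold change was 1.23, against −1.02 for the genes that fell and 0.03 for all genes. At least 2-fold changes were seen in 237 genes that rose and 197 that fell, whereas at least 8-fold changes were seen in 46 and 2 genes. The table keeps genes by their counts over all 15 libraries, so genes near 0 at T0 can be in it through other libraries. Of the called genes, 28 had 3 counts or fewer in every T0 library and 2 in every T7-RA library. How far this selection made the rises larger was not tested. The T0 and T7-RA libraries did not overlap in any of the 696 genes, nor in 33.1% of all genes tested, so a lack of overlap alone says little with 3 libraries a group. The share of genes called depended on depth, from 0.696% of genes with a mean count under 10 to 22.5% of genes with a mean count of 100 or more. A change in a gene of few counts was thus often not detectable at this depth. When each of the 6 libraries was left out in turn, 323 of the 696 calls (46.4%) were kept in all 6 fits, 151 up and 172 down. The number called ranged from 379 without T7-RA replicate 3 and 388 without T0 replicate 1 to 1001 without T0 replicate 2, and it was 442 without T7-RA replicate 1. Unless another value is given, each gene described below as having risen or fallen kept its call in all 6 fits.

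**Figure D1:**
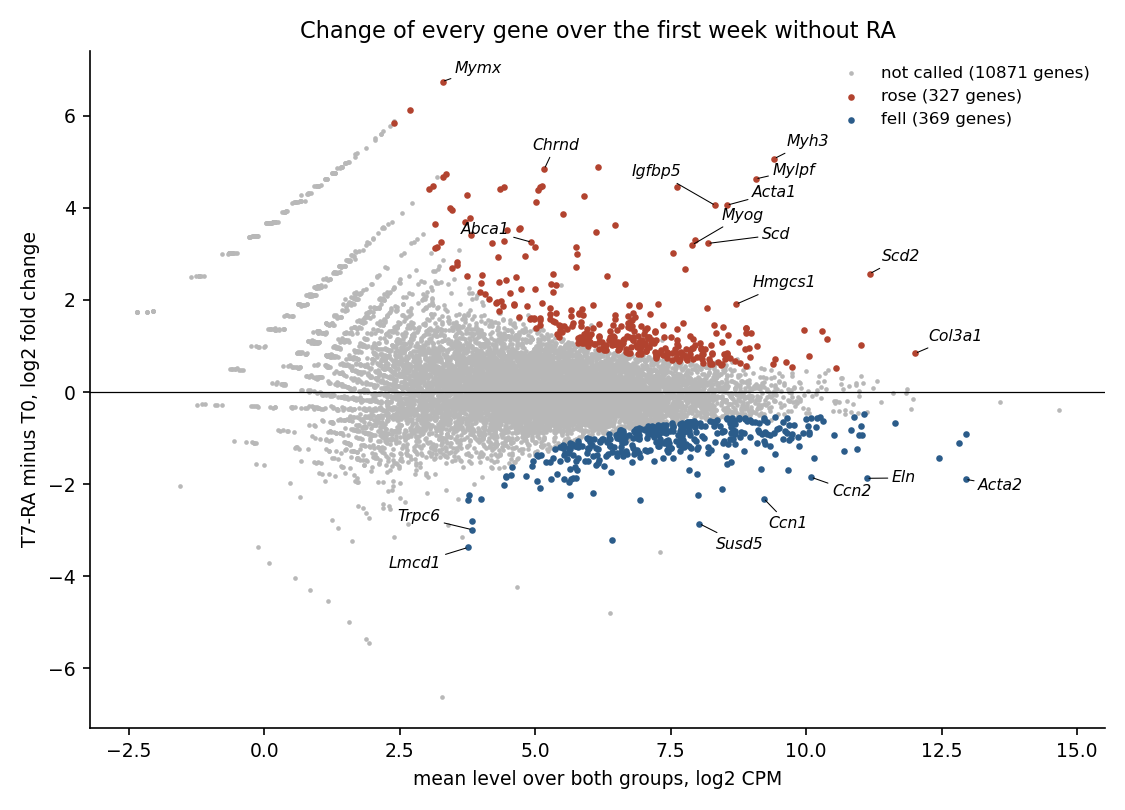
Each point is 1 of 11567 genes, with its mean level over both groups on the x axis (log2 CPM) and its log2 fold change from T0 to T7-RA on the y axis. Red points rose (327), blue points fell (369) and grey points were not called. Sarcomere genes such as Myh3, Mylpf and Acta1 lie far above 0 at high mean levels, and Acta2, Eln, Ccn1 and Susd5 lie below 0. Lines of grey points at low levels are genes with a few counts in 1 group.

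The genes were read through 46 lists of related genes, in which 218 of the 696 called genes (31.3%) had a place. For each list the number of genes that rose or fell is given, to be read against the 2.83% and 3.19% of all genes that did, in most cases with the median of its log2 fold changes. The table holds genes with more than 20 counts over all 15 libraries, so muscle genes that were near 0 at T0 are in it through the libraries in which they were high. Counts of the sarcomere, excitation-contraction and receptor lists therefore describe the genes in the table and support nothing beyond the single genes. The cholesterol synthesis list had a median above that of all genes, and the smooth muscle, YAP target and DNA replication lists had medians below it.

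**Figure D2:**
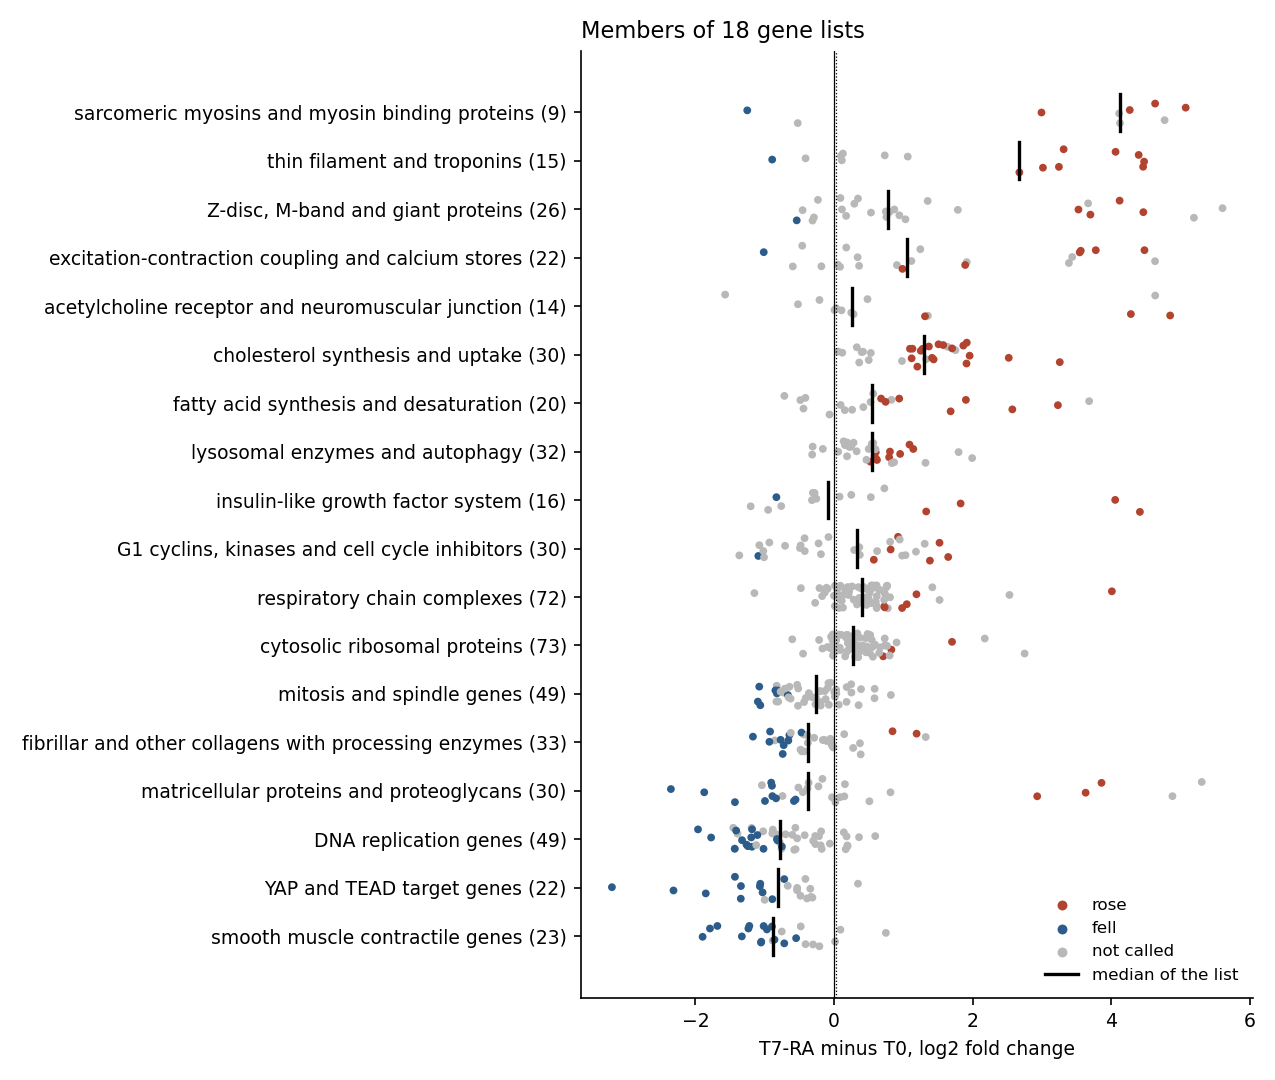
Each row is a gene list with the number of genes tested in brackets, and each point is 1 gene placed by its log2 fold change from T0 to T7-RA. Red points rose, blue points fell, grey points were not called, black bars mark the median of the list and the dotted line marks the median of all genes, 0.03. The medians of the cholesterol and smooth muscle lists were 1.30 and −0.88, and the upper rows hold muscle genes that are in the table through libraries in which they were high.

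Myogenin was the myogenic transcription factor with a rise at the threshold used here. Of 16 myogenic transcription factors and their partners in the table, 1 rose (6.25%, against 2.83% of all genes) and 2 fell (12.5%, against 3.19%), with a median log2 fold change of −0.16. The number that rose was 3 with library size as the only scaling, and 2 with at least 10 counts in every library or without T7-RA replicate 2. Myog, which drives terminal muscle differentiation, was at 36.8, 55.2 and 51.2 CPM at T0 and 408, 405 and 481 CPM at T7-RA. Every T7-RA library was thus above every T0 library (log2 fold change 3.20 ± 0.18, adjusted p = 1.9e-21). Id3, which binds E proteins and keeps myogenic factors off DNA, fell from 261, 281 and 225 CPM to 113, 126 and 92.2 CPM (log2 fold change −1.21 ± 0.16, adjusted p = 3.7e-08). The groups did not overlap for Id3 either. Tcf3, which encodes E proteins that pair with myogenic factors, also fell (log2 fold change −0.74 ± 0.16, adjusted p = 3.3e-04), but its adjusted p in edgeR reached 0.013 when 1 library was left out, and the call was lost without T0 replicate 1, T7-RA replicate 1 or T7-RA replicate 3.

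The stretch of 250 bases before the Myog start is shown because this promoter is a textbook target of myogenic factors through E-boxes. The sequence is from RefSeq (GRCr8 build, chr13:48297226-48297475, plus strand), and capitals mark matches to the E-box letters CANNTG, which match on both strands. This loose motif was added after the data had been seen, and 71.6% of all 27457 promoters in the table hold it in a window of 300 bases, 250 before the start and 50 after it. The matches lie at −157 to −152 (CACATG) and at −31 to −26 (CAGTTG), counted back from the start. A match describes letters in a window and is no evidence of binding.
Myog: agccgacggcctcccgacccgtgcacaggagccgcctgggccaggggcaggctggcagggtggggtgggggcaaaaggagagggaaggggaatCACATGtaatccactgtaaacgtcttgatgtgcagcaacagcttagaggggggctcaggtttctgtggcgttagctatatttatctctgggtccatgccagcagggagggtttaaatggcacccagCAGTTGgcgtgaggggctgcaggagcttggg

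Fusion genes moved in both directions. Of 18 genes of myoblast fusion and adhesion, 1 rose (5.56%) and 3 fell (16.7%), with a median of −0.36, and the number that fell ranged from 1 without T0 replicate 1 to 8 without T0 replicate 2. With library size as the only scaling 4 rose and 2 fell, and with at least 10 counts in every library 3 rose and 2 fell. Mymx, a micropeptide that opens the fusion pore between myoblasts, had no count in any T0 library and 16, 17 and 12 counts in the T7-RA libraries. Against a floor of 3 counts per library this is an at least 3.74-fold higher level (edgeR adjusted p = 2.5e-06). DESeq2 gave no adjusted p for this gene. Its partner Mymk, the membrane protein that brings cells to hemifusion, was at 17.7, 22.1 and 38.9 CPM at T0 and 59.8, 52.2 and 61.9 CPM at T7-RA and was not called (log2 fold change 1.20 ± 0.29, adjusted p = 0.0017). Adam12, a membrane metalloprotease of fusing myoblasts, fell from 574, 585 and 592 CPM to 239, 189 and 177 CPM (log2 fold change −1.53 ± 0.13, adjusted p = 2.2e-13). The T0 libraries were close to each other and far above the T7-RA libraries.

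In the thick filament Myh3, Mylpf, Myl4 and Mybph rose, and Myh4 fell. Of 22 sarcomeric myosins and myosin binding proteins listed, 9 were in the table, of which 4 rose and 1 fell, and all 5 calls were kept in the fits that left out a library. At least 10 counts in every library were reached by 3 of the 9, of which 2 rose and 1 fell. Myh3, the embryonic myosin heavy chain, was at 35.4, 29.4 and 55.3 CPM at T0 and 1242, 1255 and 1479 CPM at T7-RA. Its log2 fold change of 5.07 ± 0.17 (adjusted p = 2.9e-31) was the highest among called genes that had more than 3 counts in a library of each group. Mylpf, the fast regulatory light chain, went from 32.7, 42.3 and 53.2 CPM to 1006, 984 and 1116 CPM (log2 fold change 4.63 ± 0.17, adjusted p = 5.3e-30). Myl4, the light chain of embryonic muscle and atrium, rose from 4.08, 3.68 and 10.2 CPM to 95.03, 102 and 143 CPM (log2 fold change 4.26 ± 0.34, adjusted p = 8.5e-15). No T0 library reached the lowest T7-RA library for any of them. Mybph, a myosin binding protein of developing muscle, rose as well (log2 fold change 2.99). Myh4, a fast adult heavy chain, moved the other way, from 446, 388 and 446 CPM to 192, 154 and 192 CPM (log2 fold change −1.25 ± 0.14, adjusted p = 3.9e-10). Myh3, Myh4 and Myh8 lie together in band 10q24 and are closely alike in sequence, so how reads were split between them is uncertain, and Myh8, a perinatal heavy chain, had 0, 0 and 0 counts at T0 and 2, 4 and 5 at T7-RA and was not called (adjusted p = 0.033).

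Of 20 thin filament genes listed, 15 were in the table, of which 8 rose and 1 fell. Among the 9 with at least 10 counts in every library, 4 rose and 1 fell, and the median log2 fold change was 0.18. Skeletal actin, Acta1, which builds the thin filament itself, went from 51.7, 40.5 and 30.7 CPM to 682, 647 and 788 CPM (log2 fold change 4.06 ± 0.17, adjusted p = 1.4e-26). The fast troponin T gene Tnnt3, whose product ties troponin to tropomyosin, went from 17.7, 12.9 and 20.5 CPM to 380.1, 332 and 419 CPM (log2 fold change 4.46 ± 0.21, adjusted p = 3.9e-24). Fast troponin C, Tnnc2, the calcium sensor, and Tnnt2, the troponin T of heart and embryonic muscle, rose with log2 fold changes of 3.01 and 2.67. Both troponin I genes of skeletal muscle, whose products hold the filament off between contractions, were near 0 at T0. Tnni1, the slow form, had 2, 2 and 1 counts at T0 and 47, 50 and 55 at T7-RA, a ratio of 23.4 (95% interval 9.81 to 73.1) by an exact count interval that covers counting error only. Tnni2, the fast form, had a ratio of 22.3 (95% interval 9.35 to 69.8). Actc1, cardiac alpha actin, which is also made in embryonic skeletal muscle, had a ratio of 9.88 (95% interval 4.34 to 27.8). Neb, the giant ruler of the thin filament, rose from 40.8, 38.6 and 57.3 CPM to 426, 316 and 604 CPM (log2 fold change 3.31 ± 0.22, adjusted p = 1.3e-11), and without T0 replicate 2 its adjusted p in edgeR was 0.002. Tpm3, a tropomyosin of slow muscle and of the cytoskeleton, was the member that fell (log2 fold change −0.89 ± 0.13, adjusted p = 3.7e-07). Tpm1 was at 1832, 1941 and 1599 CPM and 1353, 1328 and 1363 CPM and was not called (log2 fold change −0.41 ± 0.11, adjusted p = 0.0042).

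Acta1 is shown because its promoter is the classical example of a CArG box, the site read by serum response factor. Capitals mark the box in the 250 bases before the start (RefSeq, GRCr8, chr19:68784195-68784444, minus strand), at −94 to −85 on the gene's strand. In all promoters 1.66% hold a CArG box, and 2 of the 13 thin filament promoters that could be matched do. The letters CACCTG, an E-box, are in 7 of those 13 promoters (53.8%), against 18.7% of all promoters and 1411 of the 8793 matched to a tested gene, on both strands and in windows of 300 bases. Another E-box, CAGCTG, is in 3 of the 13 (23.1%), against 15.0% of all promoters. The Acta1 window holds CAGCTG at −237 to −232, not in capitals, and no CACCTG. These shares describe the list and not the genes that rose.
Acta1: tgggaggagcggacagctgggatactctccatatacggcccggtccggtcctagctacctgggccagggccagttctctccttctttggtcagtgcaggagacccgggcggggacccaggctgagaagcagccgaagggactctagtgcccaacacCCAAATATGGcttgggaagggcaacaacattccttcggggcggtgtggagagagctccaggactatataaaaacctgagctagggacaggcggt

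In the Z-disc, the M-band and the giant proteins, 33 genes were listed and 26 were in the table, of which 4 rose and 1 fell. Among the 10 with at least 10 counts in every library, 0 rose and 1 fell, so the genes that rose were all low at T0. Myom2, an M-band protein, had 1, 0 and 2 counts at T0 and 40, 24 and 31 at T7-RA, a ratio of 24.4 (95% interval 8.10 to 120.4). Unc45b, the chaperone that folds sarcomeric myosin, had a ratio of 12.1 (95% interval 5.34 to 33.7). T7-RA libraries lay above T0 libraries in each case. Actn2, the alpha actinin of the Z-disc, had 0, 0 and 0 counts at T0 and 6, 5 and 9 at T7-RA and was not called (adjusted p = 0.0027). Des, the intermediate filament of muscle, was also low, at 9.53, 7.36 and 0 CPM and 14.08, 8.03 and 8.64 CPM (log2 fold change 0.75 ± 0.63, adjusted p = 0.46). Ttn was not among the genes analysed here.

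Of 31 excitation-contraction coupling genes listed, 22 were in the table, of which 6 rose and 1 fell. Among the 10 with at least 10 counts in every library, 1 rose and 1 fell. Of these 7 calls, 3 were kept whichever library was left out, and the number that rose was 3 without T0 replicate 1. Ryr1, the calcium release channel of skeletal muscle, went from 5.45, 0 and 6.14 CPM to 51.6, 26.8 and 66.3 CPM (log2 fold change 3.54 ± 0.49, adjusted p = 2.3e-07). Hrc, a calcium binding protein of the sarcoplasmic reticulum, had 3, 1 and 3 counts at T0 and 36, 31 and 44 at T7-RA, a ratio of 12.2 (95% interval 5.73 to 31.1). Srl, another protein of that store, rose from 0, 1.84 and 4.09 CPM to 24.6, 28.1 and 24.5 CPM (edgeR adjusted p = 5.5e-06), and DESeq2 gave no adjusted p for it. The T0 and T7-RA libraries did not overlap in these genes. Casq2, the cardiac calsequestrin that holds calcium in the store, was at 406, 432 and 315 CPM and 473, 471 and 544 CPM and was not called (log2 fold change 0.36 ± 0.13, adjusted p = 0.043).

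The genes of the nerve contact that changed all rose. Of 17 genes of the acetylcholine receptor and the neuromuscular junction listed, 14 were in the table, of which 3 rose and none fell. Among the 7 with at least 10 counts in every library, 1 rose. Chrnd, the delta subunit of the receptor, had 3, 0 and 1 counts at T0 and 67, 38 and 56 at T7-RA, a ratio of 31 (95% interval 11.9 to 115). Lrp4, the muscle receptor for the nerve signal agrin, went from 99.4, 62.5 and 92.1 CPM to 210.0, 215 and 212 CPM (log2 fold change 1.31 ± 0.17, adjusted p = 4.3e-08). Chrna1, the alpha subunit that binds acetylcholine, rose from 0, 2 and 0 counts to 18, 15 and 25 counts (adjusted p = 4.2e-06), and the call was lost without T0 replicate 1 or T7-RA replicate 3, with an adjusted p in edgeR of up to 0.00103. Both receptor subunits stood at 3 counts or fewer in all T0 libraries.

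Chrna1 is shown for its cluster of E-boxes close to the start. Capitals mark CAGCTG and CACCTG, read on both strands, in the 250 bases before the start (RefSeq, GRCr8, chr3:78877354-78877603, minus strand). CAGCTG lies at −75 to −70 and at −27 to −22, and between them CAGGTG at −56 to −51 is CACCTG on the other strand. Of all promoters, 15.0% hold CAGCTG and 18.7% hold CACCTG.
Chrna1: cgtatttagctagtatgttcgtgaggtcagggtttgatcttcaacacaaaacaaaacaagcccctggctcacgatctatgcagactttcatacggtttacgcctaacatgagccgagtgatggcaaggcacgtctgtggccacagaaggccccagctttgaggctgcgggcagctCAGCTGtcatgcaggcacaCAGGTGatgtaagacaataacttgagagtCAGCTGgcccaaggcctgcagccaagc

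In other muscle lists the share called was near the 6.02% of all genes or rested on genes already described. In the dystrophin glycoprotein complex, which anchors the muscle membrane, 0 of 15 genes were called by edgeR, DESeq2, limma-voom or limma-trend (median −0.05), whereas 4 of them had an unadjusted p under 0.05 in edgeR. In the list of creatine kinases, myoglobin and muscle energy enzymes, 1 of 15 was called, and none without T0 replicate 1 (median 0.83), and Ckm, the muscle creatine kinase, lay at 1, 0 and 3 counts at T0 and 10, 4 and 15 counts at T7-RA without a call (adjusted p = 0.023). Of 14 cardiac lineage and chamber genes, 3 rose and none fell (median −0.02). Those 3 were Myl4, Tnnt2 and Actc1, which are also expressed in embryonic skeletal muscle. Myocd, a cardiac and smooth muscle coactivator, was at 137, 62.5 and 92.1 CPM and 50.5, 66.9 and 51.9 CPM and was not called (log2 fold change −0.82 ± 0.23, adjusted p = 0.0071).

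**Figure D3:**
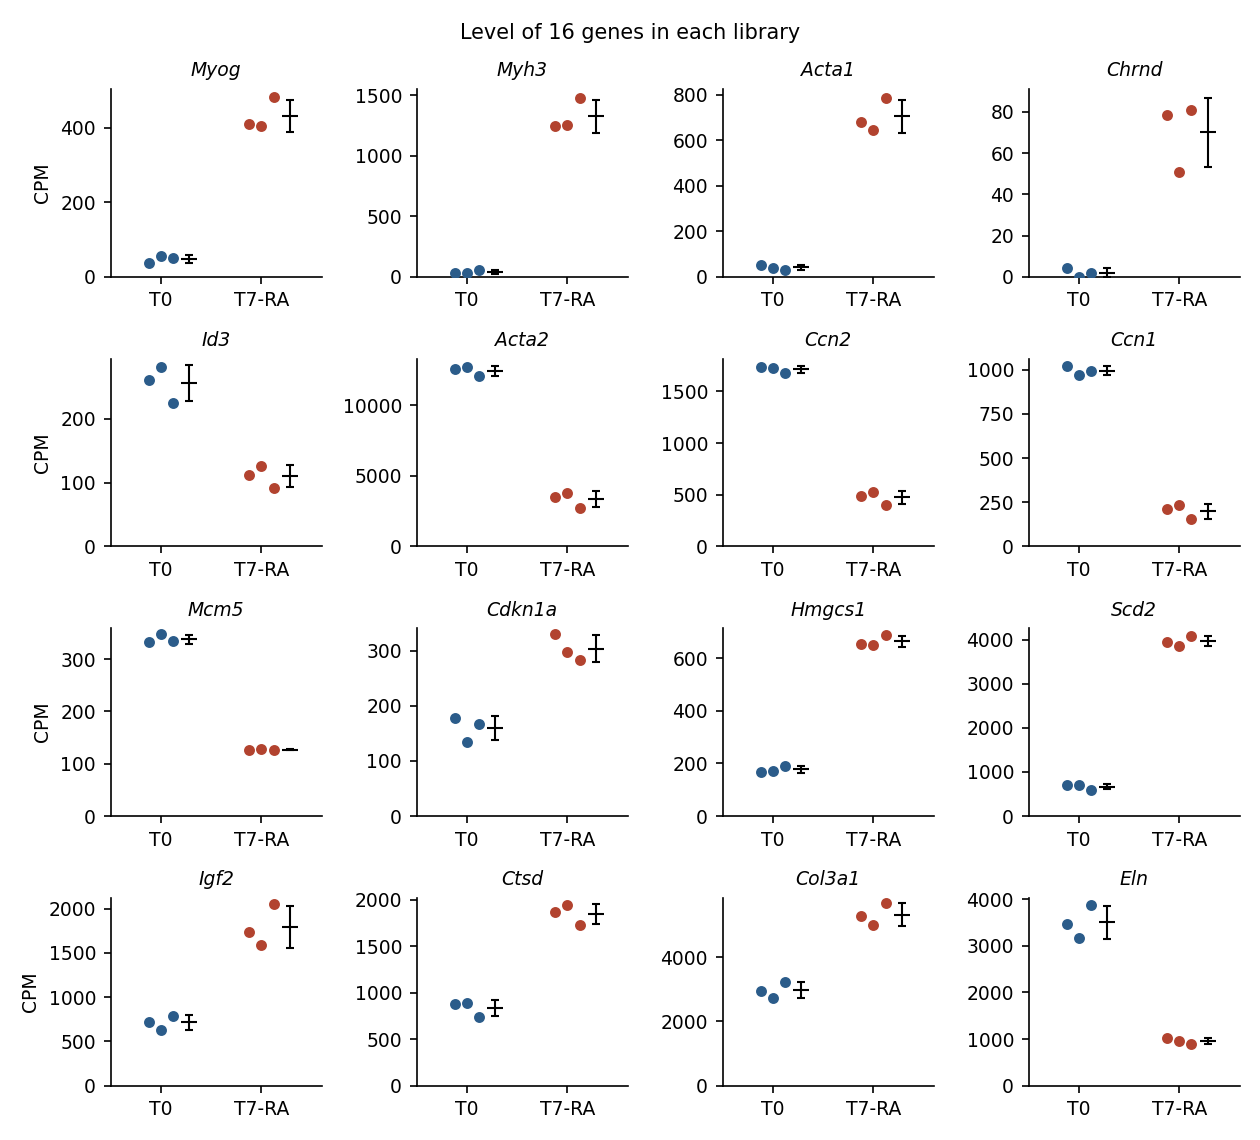
Points give the level in CPM of 16 genes in each T0 library (blue) and T7-RA library (red), and black marks with bars give the mean and SD of the 3 libraries. Each y axis starts at 0. The 16 genes were taken from the 696 called genes, none of which overlapped, so the gap between the groups in every panel follows from that choice. Of all genes tested, 33.1% did not overlap either.

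Of 23 smooth muscle contractile genes, 14 fell (60.9%, against 3.19% of all genes), none rose and 9 were not called, with a median of −0.88. Their summed level was 29480, 31360 and 27910 CPM at T0 and 13120, 14060 and 11540 CPM at T7-RA. Acta2, smooth muscle alpha actin, a stress fibre actin of myoblasts and myofibroblasts, went from 12548, 12737 and 12057 CPM to 3519.8, 3789 and 2727 CPM (log2 fold change −1.90 ± 0.11, adjusted p = 1.1e-20). This was the largest loss of CPM among the called genes. Actg2, the gamma actin of smooth muscle, went from 1333, 1332 and 1066 CPM to 398, 431 and 334 CPM (log2 fold change −1.68 ± 0.12, adjusted p = 2.1e-16). Cnn1, calponin, which restrains actomyosin, went from 363, 515 and 301 CPM to 119.7, 142 and 77.8 CPM (log2 fold change −1.79 ± 0.19, adjusted p = 1.7e-07). Tagln, an actin bundling protein, fell by 1.24 on the log2 scale, and the LIM protein Csrp1, the actin filament nucleator Lmod1 and the adhesion protein Vcl fell by 1.05, 1.22 and 0.72. The groups were apart in each of them. Of the 14 calls, 12 were kept in all 6 fits. Among the 10 genes with the largest loss of CPM was Actb, beta actin, which fell from 10489, 10143 and 10323 CPM to 5552, 5921 and 4929 CPM (log2 fold change −0.92 ± 0.10, adjusted p = 3.4e-10). Flna, an actin crosslinker, went from 10476, 8524 and 10843 CPM to 4718, 4729.6 and 4394 CPM (log2 fold change −1.11 ± 0.10, adjusted p = 2.2e-12), and the alpha actinin of stress fibres, Actn4, fell by 1.28 on the log2 scale.

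Targets of the coactivator YAP and its DNA binding partner TEAD, which act when cells spread and pull on their matrix, fell as well. Of 22 such genes, 11 fell (50.0%) and none rose, with a median of −0.80, and 10 of the 11 calls were kept in all 6 fits. Ccn1, a secreted matrix signal, went from 1019.6, 971 and 995 CPM to 212, 233 and 153 CPM (log2 fold change −2.32 ± 0.13, adjusted p = 1.1e-20). Its relative Ccn2, connective tissue growth factor, went from 1741, 1729 and 1674 CPM to 493, 529.7 and 403 CPM (log2 fold change −1.85 ± 0.12, adjusted p = 5.2e-19). T0 libraries agreed closely in both genes and lay several-fold above the T7-RA libraries. The receptor kinase gene Axl, the YAP partner Amotl2 and the growth factor binding protein Crim1 fell by 0.89, 1.07 and 1.34 on the log2 scale. Ankrd1, a cardiac ankyrin repeat protein that is often used as a YAP target, was at 1849, 1990.4 and 1648 CPM and 2288, 2268 and 2417 CPM and was not called (log2 fold change 0.35 ± 0.11, adjusted p = 0.016).

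Of 33 serum response and immediate early genes, 5 fell (15.2%, against 3.19% of all genes) and none rose (median −0.44), and the number that fell ranged from 2 without T7-RA replicate 3 to 7 without T0 replicate 2. The calls for Hbegf and Phlda1 were kept in all 6 fits. Hbegf, a ligand of the EGF receptor, went from 162, 129 and 98.3 CPM to 42.2, 37.5 and 38.9 CPM (log2 fold change −1.73 ± 0.21, adjusted p = 7.3e-09). Phlda1, which is induced by growth factors, went from 151, 123 and 159.7 CPM to 62.2, 57.5 and 59.1 CPM (log2 fold change −1.28 ± 0.19, adjusted p = 6.3e-07). Both sets of libraries were apart. Fos, a subunit of AP-1, had 0, 2 and 0 counts at T0 and 2, 2 and 1 at T7-RA and was not called. Myc, a growth promoting factor, was at 27.2, 16.6 and 36.8 CPM and 18.8, 21.4 and 17.3 CPM and was not called either (log2 fold change −0.47 ± 0.36, adjusted p = 0.4). Srf, serum response factor itself, was not called either (log2 fold change −0.75 ± 0.19, adjusted p = 0.0024).

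DNA replication genes fell in 15 of 49 cases (30.6%) and rose in none, with a median of −0.78. Their summed level was 5265, 5197 and 5017 CPM at T0 and 2953, 3011 and 3013 CPM at T7-RA. The minichromosome maintenance genes code for the helicase that opens the double helix. Mcm5 went from 332, 348 and 334 CPM to 127, 128 and 125 CPM (log2 fold change −1.41 ± 0.15, adjusted p = 3.9e-11), and Mcm3, Mcm6 and Mcm7 fell by 1.33, 1.19 and 1.18 on the log2 scale. Each T0 library lay above each T7-RA library in all 4 genes. Cdc6, which loads the helicase onto origins, went from 92.6, 66.2 and 75.7 CPM to 14.08, 18.7 and 28.8 CPM (log2 fold change −1.96 ± 0.28, adjusted p = 1.9e-07). Mcm10, which helps the helicase to start, went from 59.9, 64.4 and 71.6 CPM to 11.7, 20.1 and 25.9 CPM (log2 fold change −1.77 ± 0.29, adjusted p = 5.6e-06). Uhrf1 and Dnmt1, which copy DNA methylation to the new strand, fell by 1.43 and 1.11. Pcna, the sliding clamp of the polymerases, was not called (149.7, 153 and 108 CPM and 127, 129.7 and 105 CPM, log2 fold change −0.19 ± 0.17, adjusted p = 0.5), and neither was Mcm4 (log2 fold change −0.55 ± 0.15, adjusted p = 0.0056). Of the 15 calls, 9 were kept in all 6 fits, and the number called ranged from 9 without T7-RA replicate 3 to 18 without T0 replicate 2.

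Of 49 mitosis and spindle genes, 7 fell (against 3.19% of all genes) and none rose, with a median of −0.26, and the summed level was 5772, 5445 and 5666 CPM at T0 and 4220, 4291 and 4380 CPM at T7-RA. The calls for Incenp and Anln were kept in all 6 fits, and the number that fell was 2 without T0 replicate 1. Incenp, a scaffold of the chromosomal passenger complex, went from 231, 248 and 203 CPM to 129, 111 and 76.3 CPM (log2 fold change −1.10 ± 0.17, adjusted p = 1.2e-06). Anln, anillin of the contractile ring, which was also in the YAP list, went from 244, 252 and 291 CPM to 134, 118 and 122 CPM (log2 fold change −1.06 ± 0.15, adjusted p = 3.0e-07). Neither gene's groups overlapped. Mki67, the proliferation marker Ki-67, went from 736, 526 and 849 CPM to 395, 339.7 and 458 CPM (log2 fold change −0.82 ± 0.14, adjusted p = 3.1e-05), and its adjusted p in edgeR was 0.0023 without T0 replicate 1. Top2a, the topoisomerase of dividing cells, was not called (306, 267 and 334 CPM and 245, 247 and 264 CPM, log2 fold change −0.26 ± 0.14, adjusted p = 0.19).

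The promoters of Mcm5 and Mki67 are shown as examples of the letters counted over the replication and mitosis lists. In Mcm5 (RefSeq, GRCr8, chr19:13488563-13488812, plus strand) capitals mark E2F letters (TTTGGCGC, TTTCCCGC or TTTGGCGG on either strand) at −209 to −202 and at −8 to −1, and CCAAT at −137, −82 and −54. In Mki67 (RefSeq, GRCr8, chr1:199952594-199952843, minus strand) they mark the CHR element (TTTGAA or TTCGAA on either strand) at −117 to −112 and at −99 to −94, and CCAAT or its reverse complement ATTGG at −189, −167, −142 and −94, the last of which shares 1 base with a CHR element. E2F letters were in 19 of 42 matched replication promoters (45.2%), in 0 of 42 matched mitosis promoters in 2.02% of all promoters and in 4.17% of the 8793 promoters matched to a tested gene (76.0% of those genes). CHR letters were in 8 of 42 replication promoters, in 34 of 42 mitosis promoters (81.0%) in 19.5% of all promoters and in 13.6% of those matched to a tested gene. CCAAT was in 24 (57.1%) and 32 (76.2%) of them, against 37.8% of all promoters and 38.1% of those matched to a tested gene. These shares describe the lists and not the genes that fell.
Mcm5: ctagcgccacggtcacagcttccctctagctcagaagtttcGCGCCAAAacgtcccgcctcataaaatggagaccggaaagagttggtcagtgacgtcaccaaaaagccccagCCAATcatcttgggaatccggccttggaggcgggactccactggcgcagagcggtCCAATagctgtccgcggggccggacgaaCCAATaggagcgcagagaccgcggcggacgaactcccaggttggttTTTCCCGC
Mki67: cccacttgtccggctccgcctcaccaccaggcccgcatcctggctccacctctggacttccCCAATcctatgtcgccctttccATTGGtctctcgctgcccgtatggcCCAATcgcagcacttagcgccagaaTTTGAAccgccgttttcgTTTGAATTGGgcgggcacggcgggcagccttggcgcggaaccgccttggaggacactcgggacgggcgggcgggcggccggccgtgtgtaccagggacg

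Among 30 G1 cyclins, kinases and cell cycle inhibitors, 6 rose (against 2.83% of all genes) and 1 fell (median 0.33). Cdkn1a, the p21 inhibitor of cyclin dependent kinases that marks cell cycle exit in myoblasts, went from 177, 134 and 168 CPM to 331, 298 and 282 CPM (log2 fold change 0.92 ± 0.15, adjusted p = 3.1e-06). Ccng1, a target of p53, went from 291, 250.2 and 246 CPM to 646, 642 and 776 CPM (log2 fold change 1.38 ± 0.13, adjusted p = 2.2e-12). The antiproliferative gene Btg1 and the growth arrest gene Gadd45a rose with log2 fold changes of 1.52 and 1.65. T7-RA libraries were higher throughout in these 4 genes, and their calls were kept in all 6 fits. The D cyclins Ccnd2 and Ccnd3, which drive G1 kinases, also rose (log2 fold change 0.82 ± 0.15, adjusted p = 3.5e-05 for Ccnd2 and log2 fold change 0.57 ± 0.12, adjusted p = 4.2e-04 for Ccnd3), and Cdk2, a kinase of S phase entry, fell (log2 fold change −1.09 ± 0.23, adjusted p = 2.9e-04). The Ccnd2 call was lost without T7-RA replicate 1 (adjusted p in edgeR 0.0022). Those of Ccnd3 (adjusted p up to 0.013) and Cdk2 (up to 0.013) were lost without T0 replicate 1 or any 1 T7-RA library, and that of Ccnd3 also without T0 replicate 3. Cdkn1b, the p27 inhibitor, was not called (101, 101 and 119 CPM and 119.7, 138 and 157 CPM, log2 fold change 0.37 ± 0.18, adjusted p = 0.14). Ccnd1, the cyclin that growth factors induce, was not called either (945, 912 and 1013 CPM and 864, 789 and 864 CPM, log2 fold change −0.19 ± 0.11, adjusted p = 0.26).

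Cholesterol synthesis was the list with the largest share of genes that rose among those described here: 18 of 30 rose (60.0%, against 2.83% of all genes) and none fell, and all 30 had a log2 fold change above 0 (median 1.30). Their summed level was 3222, 2866 and 3154 CPM at T0 and 6580, 6621 and 6294 CPM at T7-RA. Hmgcs1, which makes the first committed precursor of the pathway, went from 167, 173 and 190.4 CPM to 652, 650.1 and 687 CPM (log2 fold change 1.91 ± 0.13, adjusted p = 3.2e-17). Idi1, which isomerises the building block of isoprenoids, went from 25.9, 31.3 and 12.3 CPM to 136, 124 and 149.8 CPM (log2 fold change 2.52 ± 0.24, adjusted p = 3.7e-12). Insig1, the sterol sensor that holds back the pathway, went from 66.7, 58.9 and 67.5 CPM to 257, 214 and 259 CPM (log2 fold change 1.91 ± 0.18, adjusted p = 9.7e-13). T0 and T7-RA libraries were far apart in each. Later steps rose as well, with log2 fold changes of 1.41 for the squalene epoxidase Sqle, 1.44 for the lanosterol synthase Lss, 1.28 for the demethylase Cyp51, 1.51 for the methyl oxidase Msmo1, 1.86 for the dehydrogenase Nsdhl and 1.20 for the last reductase Dhcr7. Abca1, which exports cholesterol and is known as a target of liver X receptors, had the highest log2 fold change of the list and rose from 6.81, 5.52 and 4.09 CPM to 55.1, 44.1 and 67.7 CPM (log2 fold change 3.26 ± 0.40, adjusted p = 5.3e-09). Of the 18 calls, 15 were kept in all 6 fits.

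Of 20 genes of fatty acid synthesis and desaturation, 7 rose (35.0%) and none fell (median 0.55), and the summed level went from 3270, 3074 and 3128 CPM to 7751, 7548 and 7798 CPM. Scd2, a stearoyl-CoA desaturase that makes monounsaturated fatty acids, went from 696, 703 and 598 CPM to 3948, 3852 and 4083 CPM (log2 fold change 2.57 ± 0.11, adjusted p = 6.3e-26), the largest gain of CPM among the called genes. Its neighbour Scd, in the same band 1q54, went from 51.7, 69.9 and 47.1 CPM to 534, 461 and 588 CPM (log2 fold change 3.23 ± 0.17, adjusted p = 1.7e-22). No library of 1 group reached the other. The acyl-CoA ligases Acss2 and Acsl3 rose with log2 fold changes of 1.90 and 1.68, and the citrate lyase Acly, which feeds acetyl-CoA to both pathways, rose with 0.74. Fasn, the fatty acid synthase itself, was not called (547, 491 and 614 CPM and 645, 621 and 570.4 CPM, log2 fold change 0.15 ± 0.12, adjusted p = 0.42). Srebf2, the regulator of sterol genes, was not called (log2 fold change 0.12 ± 0.14, adjusted p = 0.62).

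**Figure D4:**
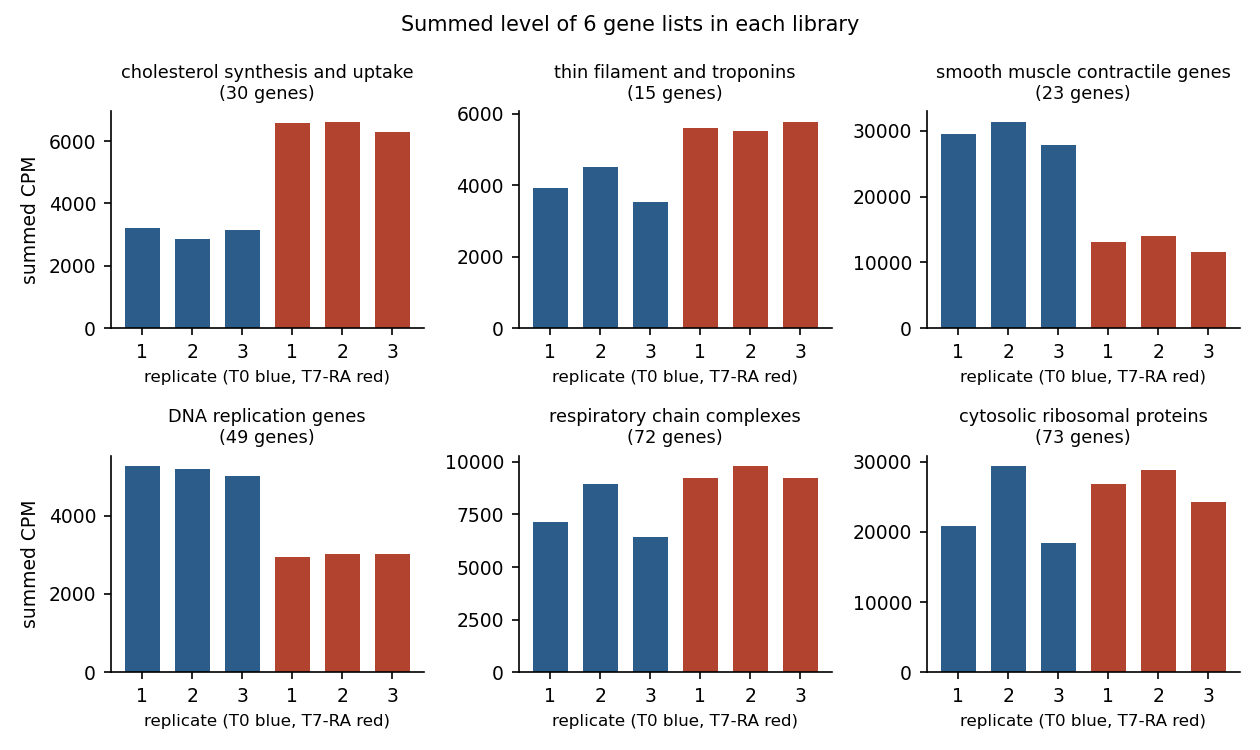
Bars give the summed CPM of 6 gene lists in each T0 library (blue) and T7-RA library (red), with axes from 0. The cholesterol and thin filament sums are higher and the smooth muscle and DNA replication sums lower in every T7-RA library, whereas the ribosomal protein sum of T0 replicate 2 (29390 CPM) lies above all T7-RA libraries.

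The respiratory chain and ribosomal lists held few called genes and depended on which T0 libraries were used. Of 72 respiratory chain genes tested, 6 rose (8.33%) and none fell (median 0.41). Their summed level was 7152, 8951 and 6436 CPM at T0 and 9235, 9795 and 9214 CPM at T7-RA. The number called ranged from 1 without T0 replicate 1 to 17 without T0 replicate 2, the library in which genes with short transcripts were relatively high. Calls also differed with transcript length. Of 1210 genes in the shortest 25% 72 rose and 48 fell, and of 1208 genes in the longest 25% 51 rose and 111 fell, among genes with a mean count of at least 30. The part of transcript length in these sums was not tested. Cox8b, a cytochrome oxidase subunit of heart and muscle, was the call kept in all 6 fits, with 2, 0 and 0 counts at T0 and 20, 15 and 13 at T7-RA, and DESeq2 gave no adjusted p for it. Of 73 cytosolic ribosomal protein genes, 3 rose (4.11%, near the 2.83% of all genes). The sums were 20860, 29390 and 18400 CPM at T0 and 26790, 28830 and 24270 CPM at T7-RA, so the groups overlapped, and the number called ranged from 1 without T0 replicate 1 to 26 without T0 replicate 2. Rpl30 was the member whose call was kept in all 6 fits (log2 fold change 1.70 ± 0.20, adjusted p = 3.4e-08). Of 43 genes of fatty acid oxidation and the citrate cycle, 3 rose (6.98%, median 0.35), and 1 did without T0 replicate 1, T0 replicate 3, T7-RA replicate 1 or T7-RA replicate 3. Hadhb, a subunit of the trifunctional protein of beta oxidation, went from 222, 199 and 182 CPM to 371, 411 and 448 CPM (log2 fold change 1.02 ± 0.14, adjusted p = 8.2e-08). Of 30 ribosome biogenesis genes, 1 fell (3.33%, near the 3.19% of all genes, median −0.40), the nucleolar protein gene Mybbp1a (log2 fold change −1.01 ± 0.14, adjusted p = 1.4e-07).

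Lysosomal genes rose in 9 of 32 cases (28.1%) and fell in none (median 0.55), with summed levels of 7502, 7656 and 7056 CPM at T0 and 11120, 11390 and 10780 CPM at T7-RA. Ctsd, the aspartic protease cathepsin D, went from 881, 887 and 739 CPM to 1872, 1944 and 1727 CPM (log2 fold change 1.14 ± 0.11, adjusted p = 7.3e-12). The lysosomal membrane proteins Lamp1 and Lamp2 rose with log2 fold changes of 0.79 and 0.95. These 3 calls were kept in all 6 fits, and the number called ranged from 3 without T7-RA replicate 1 to 11 without T0 replicate 2. Laptm4a, another lysosomal membrane protein and 1 of the 10 genes with the largest gain of CPM, went from 589, 618 and 465 CPM to 1274, 1553 and 1474 CPM (log2 fold change 1.36 ± 0.12, adjusted p = 2.4e-13).

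Of 33 collagens and collagen processing enzymes, 2 rose (6.06%) and 9 fell (27.3%, median −0.38), and of 30 matricellular proteins and proteoglycans 3 rose (10.0%) and 10 fell (33.3%, median −0.37). Of 14 laminins and basement membrane proteins 4 fell (28.6%) and of 17 integrin subunits 4 fell (23.5%), with none that rose in either. Col3a1, a fibrillar collagen of soft tissue, went up from 2939, 2745 and 3230.1 CPM to 5278, 5008 and 5704 CPM (log2 fold change 0.84 ± 0.10, adjusted p = 7.2e-09). Col1a1, the main chain of type I collagen and the gene with most counts in all 6 libraries, was not called (27735, 23822 and 36403 CPM and 24397, 22331 and 20773 CPM, log2 fold change −0.38 ± 0.11, adjusted p = 0.016). Eln, elastin, went down from 3464, 3171 and 3877 CPM to 1030.1, 956 and 883 CPM (log2 fold change −1.87 ± 0.11, adjusted p = 3.3e-20). The groups were far apart for Eln. Thbs1, thrombospondin 1, which activates latent TGF-beta, went from 8365, 7187 and 8957 CPM to 3116, 3183 and 2802 CPM (log2 fold change −1.43 ± 0.11, adjusted p = 2.9e-16), whereas its relative Thbs2 rose from 1.36, 9.20 and 8.19 CPM to 75.1, 78.9 and 102 CPM (log2 fold change 3.86 ± 0.37, adjusted p = 4.1e-12). Fmod, a small proteoglycan that binds collagen, rose from 10.9, 1.84 and 28.7 CPM to 141, 148 and 205 CPM (log2 fold change 3.63 ± 0.34, adjusted p = 1.3e-08), with T0 libraries that differed widely from one another. The calcium binding matrix protein Smoc1, the basement membrane protein Nid2 and periostin, Postn, fell by 2.35, 1.39 and 0.91 on the log2 scale. Both type IV collagen chains, which form the basement membrane network, fell, Col4a1 by 0.93 and Col4a2 by 0.87. The fibronectin receptor chain Itga5 and the collagen receptor chain Itga11 fell by 1.12 and 1.27. In the collagen list 4 of 11 calls were kept in all 6 fits, and the number that fell was 3 without T0 replicate 1. For integrins the number that fell was 7 without T0 replicate 2. Of 19 matrix proteases and inhibitors, 3 rose (15.8%) and 4 fell (21.1%, median 0.24), with Plat, the tissue plasminogen activator, from 42.2, 40.5 and 26.6 CPM to 99.7, 102 and 92.2 CPM (log2 fold change 1.40 ± 0.23, adjusted p = 4.5e-06) and the protease Adamts9 from 185, 142 and 159.7 CPM to 69.2, 66.9 and 56.2 CPM (log2 fold change −1.34 ± 0.19, adjusted p = 1.2e-07). The number of proteases that rose was 1 without T0 replicate 3.

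Of 24 genes of epithelial to mesenchymal transition, 10 fell (41.7%) and 1 rose (4.17%, median −0.61). The list shares Acta2, Tagln, Thbs1, Ccn1, Ccn2 and others with the smooth muscle, YAP and matrix lists, so it is no separate evidence of their direction. Vim, vimentin, the intermediate filament of mesenchymal cells, went from 3775, 4304 and 3738 CPM to 2513, 2531 and 2325 CPM (log2 fold change −0.68 ± 0.10, adjusted p = 1.1e-06). The member that rose was S100a4, a calcium binding protein of motile cells, from 192, 368 and 227 CPM to 668, 637 and 748 CPM (log2 fold change 1.39 ± 0.16, adjusted p = 1.9e-07). Fn1, fibronectin, was not called (13399, 10945 and 15018 CPM and 12211, 11079 and 10391 CPM, log2 fold change −0.22 ± 0.11, adjusted p = 0.14).

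In the insulin-like growth factor system, which promotes myoblast differentiation, both ligands and 2 binding proteins rose, and the receptor gene Igf1r fell. Of 16 genes, 4 rose (25.0%) and 1 fell (6.25%, median −0.09). The log2 fold change of Igf1r lay between −0.87 and −0.76 in the fits that left out 1 library. Its call was kept only without T0 replicate 2 and lost in the other such fits (adjusted p in edgeR up to 0.0071). Igf2, the ligand that myoblasts make as they differentiate, went from 721, 627 and 792 CPM to 1738, 1590.4 and 2049.6 CPM (log2 fold change 1.33 ± 0.12, adjusted p = 2.4e-13). Igf1 had 3, 0 and 0 counts at T0 and 38, 20 and 33 at T7-RA, a ratio of 23.4 (95% interval 7.74 to 115). Igfbp5, the main binding protein of muscle cells, went from 53.1, 29.4 and 20.5 CPM to 558, 551 and 710.1 CPM (log2 fold change 4.05 ± 0.20, adjusted p = 2.1e-20). T7-RA libraries lay above T0 libraries for all of them. Igfbp4 rose from 119.8, 129 and 131 CPM to 446, 476 and 419 CPM (log2 fold change 1.83 ± 0.14, adjusted p = 4.4e-15). The 4 calls of genes that rose were kept in all 6 fits.

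In TGF-beta and BMP signalling, 4 of 35 genes fell (11.4%, against 3.19% of all genes) and 1 rose (2.86%, the share of all genes being 2.83%, median −0.29). Tgfb3, a TGF-beta ligand, went from 939, 833 and 872 CPM to 287, 289 and 249.2 CPM (log2 fold change −1.68 ± 0.12, adjusted p = 2.9e-16). Smad7, the feedback inhibitor that TGF-beta itself induces, went from 85.8, 77.3 and 79.8 CPM to 19.9, 22.7 and 24.5 CPM (log2 fold change −1.86 ± 0.26, adjusted p = 1.3e-07). Both were lower in every T7-RA library. Id1 and Id2, BMP targets related to Id3, were not called (log2 fold change −1.10 ± 0.27, adjusted p = 0.0019 for Id1 and log2 fold change −1.26 ± 0.34, adjusted p = 0.0053 for Id2). Of 30 Notch and Wnt genes, 2 rose (6.67%) and 4 fell (13.3%, median −0.24), and the calls kept in all 6 fits were the Notch ligand Jag1, which fell from 186, 213 and 244 CPM to 119.7, 108 and 73.5 CPM, and the secreted Wnt inhibitor Wif1, which rose from 20.4, 9.20 and 10.2 CPM to 84.5, 69.6 and 56.2 CPM (log2 fold changes −1.07 and 2.32). The number of Notch and Wnt genes that fell ranged from 1 without T7-RA replicate 1 to 6 without T0 replicate 2. Of 12 genes of retinoid metabolism and its receptors, 1 rose (8.33%) and 1 fell (median −0.02). The call kept in all 6 fits was Rai14, an actin binding protein named for its induction by RA, which fell from 302, 302 and 309 CPM to 136, 158 and 189 CPM (log2 fold change −0.92 ± 0.15, adjusted p = 2.6e-06). No RA was added in either group, so RA treatment does not differ in this comparison.

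Some immune type genes rose. Of 21 genes of interferon response and MHC class I, 3 rose and none fell (median 0.98), and of 14 complement and chemokine genes 3 rose (21.4%) and 1 fell (7.14%, median 0.68). B2m, the light chain of MHC class I, went from 215, 184 and 166 CPM to 434, 461 and 483 CPM (log2 fold change 1.27 ± 0.14, adjusted p = 1.9e-10). C1s, a serine protease of the classical complement pathway, went from 42.2, 29.4 and 24.6 CPM to 149, 163 and 197 CPM (log2 fold change 2.35 ± 0.22, adjusted p = 1.3e-12), and its partner C1r rose with a log2 fold change of 0.93. Each T7-RA library was above each T0 library. Of 12 leukocyte markers, only Cd14 was in the table, at 13.6, 22.1 and 10.2 CPM and 16.4, 29.4 and 23.0 CPM, and it was not called (adjusted p = 0.35).

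Among stress and nutrient genes the changes were scattered. Of 35 genes of ER folding and amino acid stress, 3 rose and 3 fell (8.57% each, median −0.20), and Hspa5, the main ER chaperone, was not called (1054, 999 and 919 CPM and 892, 940.3 and 863 CPM, log2 fold change −0.14 ± 0.11, adjusted p = 0.42). Ddit4, an inhibitor of mTORC1 induced by stress and glucocorticoids, rose from 20.4, 9.20 and 12.3 CPM to 76.3, 57.5 and 64.8 CPM (log2 fold change 2.17 ± 0.31, adjusted p = 2.7e-07). Hyou1, an ER chaperone, fell by 0.88 on the log2 scale. Of 22 FoxO and muscle atrophy genes, 2 rose (9.09%) and 1 fell (4.55%, median 0.68), with Sesn3, a FoxO target that restrains mTORC1, from 58.5, 44.1 and 49.1 CPM to 122, 111 and 161 CPM (log2 fold change 1.35 ± 0.21, adjusted p = 1.2e-06). In the ER list 1 rose and 1 fell without T0 replicate 1. Trim63, the ubiquitin ligase of muscle atrophy, was not called (8.17, 1.84 and 8.19 CPM and 18.8, 28.1 and 18.7 CPM, log2 fold change 1.78 ± 0.49, adjusted p = 0.0066). In the antioxidant list, 2 of 28 fell (7.14%) and none rose (median 0.07), and neither call was kept in all 6 fits. Without T0 replicate 2, 6 rose and 3 fell, and with library size as the only scaling 3 rose and 1 fell. Of 26 glycolysis and glucose uptake genes, 3 rose (11.5%) and none fell (median 0.25), and none was called without T0 replicate 1.

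Several genes with large changes belonged to none of these lists. Olfml2a, a secreted olfactomedin domain protein, rose from 8.17, 3.68 and 0 CPM to 138, 109.7 and 170.0 CPM (log2 fold change 4.89 ± 0.35, adjusted p = 6.3e-16), the second largest rise after Myh3 by the same rule. Ephx1, a detoxifying epoxide hydrolase, went from 12.3, 9.20 and 12.3 CPM to 115, 112 and 158 CPM (log2 fold change 3.48 ± 0.28, adjusted p = 9.5e-15), and Tceal7 went from 6.81, 0 and 0 CPM to 66.9, 46.8 and 83.5 CPM (log2 fold change 4.46 ± 0.49, adjusted p = 1.1e-09). Ca3, the carbonic anhydrase of slow muscle and fat, was already high at T0 and rose from 1404, 1484 and 1209.7 CPM to 2639, 2583 and 3098 CPM (log2 fold change 1.02 ± 0.11, adjusted p = 1.6e-10). Among the falls, Susd5 went from 481, 436 and 467 CPM to 66.9, 73.6 and 48.97 CPM (log2 fold change −2.86 ± 0.16, adjusted p = 3.6e-21), and Cyp1b1, a cytochrome P450 induced by the aryl hydrocarbon receptor, from 626, 506 and 563 CPM to 116, 123 and 156 CPM (log2 fold change −2.11 ± 0.14, adjusted p = 9.8e-18). Fgfr2, a receptor for fibroblast growth factors, went from 128, 112 and 92.1 CPM to 30.5, 20.1 and 21.6 CPM (log2 fold change −2.19 ± 0.24, adjusted p = 3.0e-10). Shroom1 and the replication fork protein gene Tonsl fell by 2.23 and 2.09 on the log2 scale. The groups did not overlap in these genes. The called genes at 3 counts or fewer in every T7-RA library were Trpc6, a cation channel, with 19, 13 and 13 counts at T0 and 3, 1 and 3 at T7-RA, and Lmcd1, a LIM domain protein, with 10, 20 and 12 and 2, 2 and 1. The level at T0 was 8.35 (95% interval 3.74 to 21.9) times that at T7-RA for Trpc6 and 10.9 (95% interval 4.32 to 35.3) times for Lmcd1. DESeq2 gave no adjusted p for either, and limma-voom did not call Lmcd1 (adjusted p = 0.0017). Fxyd5, Foxc2, Crispld2, Ust and Serpine2 were also among the 15 largest falls of genes with a symbol. Their calls were lost without T0 replicate 1 or T7-RA replicate 3, with an adjusted p in edgeR between 0.0018 (Fxyd5) and 0.011 (Crispld2) as the highest value of a gene. For Foxc2, Crispld2 and Ust the calls were also lost without T0 replicate 3, T7-RA replicate 1 or T7-RA replicate 2.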

How the data were processed

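H9c2 RNA had been sequenced as stranded poly(A) libraries with paired reads of 75 bases. The authors deposited 1 table of raw counts per gene for all 15 libraries, made with HISAT2 and featureCounts on Rnor_6.0 according to the submitters' processing notes. The versions of these tools, and whether strand was used in counting, are not given in the sources used here, so genes that overlap, including antisense pairs, are uncertain. The table holds no gene whose counts over the 15 libraries sum to less than 21, as a filter for more than 20 would leave. Of the sample columns, 0 could not be mapped to a sample, and the other 9 libraries entered no fit.

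Library totals of 508397 to 825712 counts limit what can be detected in low genes. T7-RA was compared with T0 by edgeR 4.0.16 in R 4.3.3 on the counts as deposited (TMM scaling, quasi-likelihood test, Benjamini-Hochberg adjustment over 11567 genes, threshold 0.001). The errors given for log2 fold changes are standard errors. CPM are counts per 1e6 counts of the TMM scaled library size. Alternatives were DESeq2 1.42.0, limma 3.58.1 (voom and trend), other scaling, count filters, thinning to the smallest library, a replicate block, a threshold of 0.05 and leaving out each library.

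Genes named are the 15 largest rises and falls among called genes with a symbol, more than 3 counts in a library of each group and no overlap, up to 8 genes at 3 counts or fewer in every library of a group, the 10 largest gains and losses of mean CPM, and members of the 46 lists. The lists and the comparison were chosen with earlier results of these data known. Count ratios have exact 95% intervals, which cover counting error only. Promoter sequences came from RefSeq (GRCr8) and were matched by symbol, with 8793 of the 11567 genes tested (76.0%) and 550 of the 696 called genes matched. Since both shares are under 80%, the shares over all genes tested are descriptions of the matched ones only, and list shares are given only where more of the genes matched (42 of 49 replication genes, 42 of 49 mitosis genes and 13 of 15 thin filament genes). Same-numbered libraries of the groups deviated together with r of −0.07, 0.17 and 0.03 over 4830 genes, so the replicate numbers were not taken to pair the libraries. Some genes are not reported here.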

Additional observations from a re-analysis of the deposited data

How the results depend on the processing

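The number of genes called depended on the threshold, on the test and on single T0 and T7-RA libraries. At an adjusted p under 0.05 edgeR called 2071 genes, 1070 up and 1001 down. DESeq2 called 459 at 0.001 (208 up), of which 457 were among the 696, and gave no adjusted p for 32 of the 696. limma-trend called 421 (213 up and 208 down). Leaving out 1 library gave 379 to 1001 called genes, 176 to 458 up and 198 to 543 down, with the lowest value for all genes without T7-RA replicate 3 and the highest without T0 replicate 2. The counts stayed within 1.5 times the reported ones with limma-voom (509), relative log expression factors (691), the 3 count filters (584 to 642), thinned counts (619) and library size as the only scaling (716, of which 586 were shared). With the last, 63.8% of called genes were up instead of 47.0%, and the median log2 fold change of all genes was 0.13.

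With the replicate number as a block, 911 genes were called (442 up and 469 down), 695 of them among the 696. The numbers did not pair the libraries, and the block is given for completeness.

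Requiring at least 10 counts in every library removed muscle genes that were near 0 at T0. The thin filament genes that rose went from 8 to 4 and their median log2 fold change from 2.67 to 0.18, the Z-disc genes that rose from 4 to 0, the excitation-contraction genes that rose from 6 to 1 and the myosin genes that rose from 4 to 2. Among list counts, respiratory chain genes that rose went from 6 to 2 with DESeq2 and 3 with limma-trend, mitosis genes that fell from 7 to 4 with DESeq2 and 2 with limma-trend, excitation-contraction genes that rose from 6 to 2 with DESeq2, lysosomal genes from 9 to 4 with limma-trend, and ribosomal protein genes that rose from 3 to 11 with the block. Collagens that fell went from 9 to 4 with limma-trend and 5 with library size only, Notch and Wnt genes that fell from 4 to 1 with DESeq2, limma-trend and library size only, proteases that rose from 3 to 1 with DESeq2, limma-voom and limma-trend, glycolysis genes that rose from 3 to 0 with DESeq2, limma-voom and filterByExpr, and serum response genes that fell from 5 to 3 with limma-trend. The cause was not tested. The median count of 22 per gene and library and the 3 libraries per group limit the calls of low genes.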

Other observations

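Some features fell in mean CPM without a call because they were high in T0 replicate 3 alone. AABR07015081.2, a clone-based gene name, had 0, 3 and 426 counts at T0 and 38, 11 and 8 counts at T7-RA. AABR07063425.2 had 13, 3 and 225 counts at T0 and 11, 1 and 0 counts at T7-RA. Both were chosen after their values had been seen.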
